A study of Mus musculus with 2 samples.

Results

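Solute carriers are membrane proteins that move amino acids, sugars, ions, metals and metabolites across cell membranes, and their genes are named Slc with a family number. The genes described here were the Slc genes with a clear signal in 2 epithelial populations of the mouse hair follicle. A gene belonged to the set if it had a probe set of its own, its symbol began with Slc and a number, and its brightest probe set, by mean log2 signal over both arrays, reached a signal of 200 on at least 1 array. Slc45a2 was left out by this rule. There were 158 such genes among 346 Slc genes with a probe set of their own, and 9721 of 18193 genes on the array met the same signal rule. The genes were chosen by their signal level on these arrays and not directly by the difference between them, although 1 array was enough to qualify. All values below come from the same 2 arrays. The set includes 3 genes that carry an Slc symbol but encode no transporter: the scaffold gene Slc9a3r1, the adaptor gene Slc4a1ap and Slc7a6os, the neighbour of Slc7a6.

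Both populations came from the back skin of CD-1 mouse pups at postnatal day 4, which were double transgenic for K14-RFP, a red protein driven by the promoter of keratin 14, and Sox9-EGFP, a green reporter of Sox9. The early bulge cells were bright for both reporters, and the bulge is where follicle stem cells reside. The cells of the non-bulge outer root sheath (ORS), the outermost epithelial layer, lacked the green signal but were bright in red, and both sorts excluded dead cells as well as large, differentiated ones. Each population was measured on 1 array, how many pups it pooled is not stated in the labels, and no ratio has a replicate check. No test between the populations was possible, and no p-value or error is given. All ratios are early bulge over ORS unless the text says otherwise, and 2-fold is a size and not a test.

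A cell takes up what it needs for growth through plasma membrane carriers, and further carriers distribute these substances between its compartments. Some amino acid carriers of family 7, the light chains, pair with the heavy chain encoded by Slc3a2. Some monocarboxylate carriers of family 16, but not all of its members, need a small partner protein, embigin or basigin, to reach the cell surface. The carriers of family 25 lie mostly in the inner mitochondrial membrane. Zinc is brought into the cytosol by family 39 and removed from it by family 30. Epidermis is sensitive to zinc supply, and inherited loss of an intestinal zinc importer causes a skin disease.

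The arrays carried 45101 probe sets, and signals below 57.8, the 40th percentile of both arrays pooled, were treated as a floor and set to that value. A ratio with 1 array below the floor is a lower bound and is written as at least N-fold. The Sox9 signal was 4061 in early bulge and 676 in ORS (log2 ratio 2.59), the order of the green gates. Another Sox9 probe set gave a smaller log2 ratio of 1.07, and one below the floor in ORS was at least 1.23-fold higher in early bulge. The signal of Krt14, which encodes keratin 14, was 14706 and 6609, 2.23-fold lower in ORS although both sorts were bright in red. Its other probe sets gave log2 ratios of 1.74 and 2.43. Of 13 dermal fibroblast markers, of cells that a keratin 14 gate should leave out, 10 were 2-fold or more higher in ORS. Their signals summed to 6627 in early bulge and 58456 in ORS, none lay under the floor in ORS, and Pdgfra lay under it in early bulge. Of 8 markers of pericytes and smooth muscle, 4 were 2-fold or more higher in ORS, as were 2 of 9 of melanocytes and 1 of 4 of endothelium, while 2 of 4 Schwann cell markers were higher in early bulge. Of 9 measured sebaceous gland genes, 6 were 2-fold or more higher in early bulge, their signals summed to 25473 and 7284, and 4 of them lay under the floor in ORS. The immune, adipocyte, erythroid and skeletal muscle lists had no marker 2-fold apart, and 6 of 10, 4 of 5, 3 of 4 and 4 of 8 matched markers lay under the floor on both arrays. The part of these cell types in the ratios below was not tested. In sorted cells measured in bulk, fewer cells of a type and less RNA per cell cannot be told apart.

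Most of the 158 genes had like signals on both arrays, and 28 were at least 2-fold apart. Of these, 17 (10.8% of the 158) were higher in early bulge and 11 (6.96%) in ORS. Among all genes under the same signal rule, 7.8% were 2-fold or more higher in early bulge and 5.52% in ORS. At 4-fold, 7 solute carrier genes were higher in early bulge and 4 in ORS, where 2.55% and 1.8% of all genes under the rule were. The median log2 ratio was 0.11 over the solute carrier genes and -0.02 over all genes under the rule, and the SDs over genes were 0.90 and 0.85. Within a log2 ratio of 0.5 either way lay 100 of the 158. After median centring, which moved the median of all genes under the rule to -0.24, 13 solute carrier genes were 2-fold higher on each array, so the early bulge share of those 2-fold apart was 50% in place of 60.7%.

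**Figure D1:**
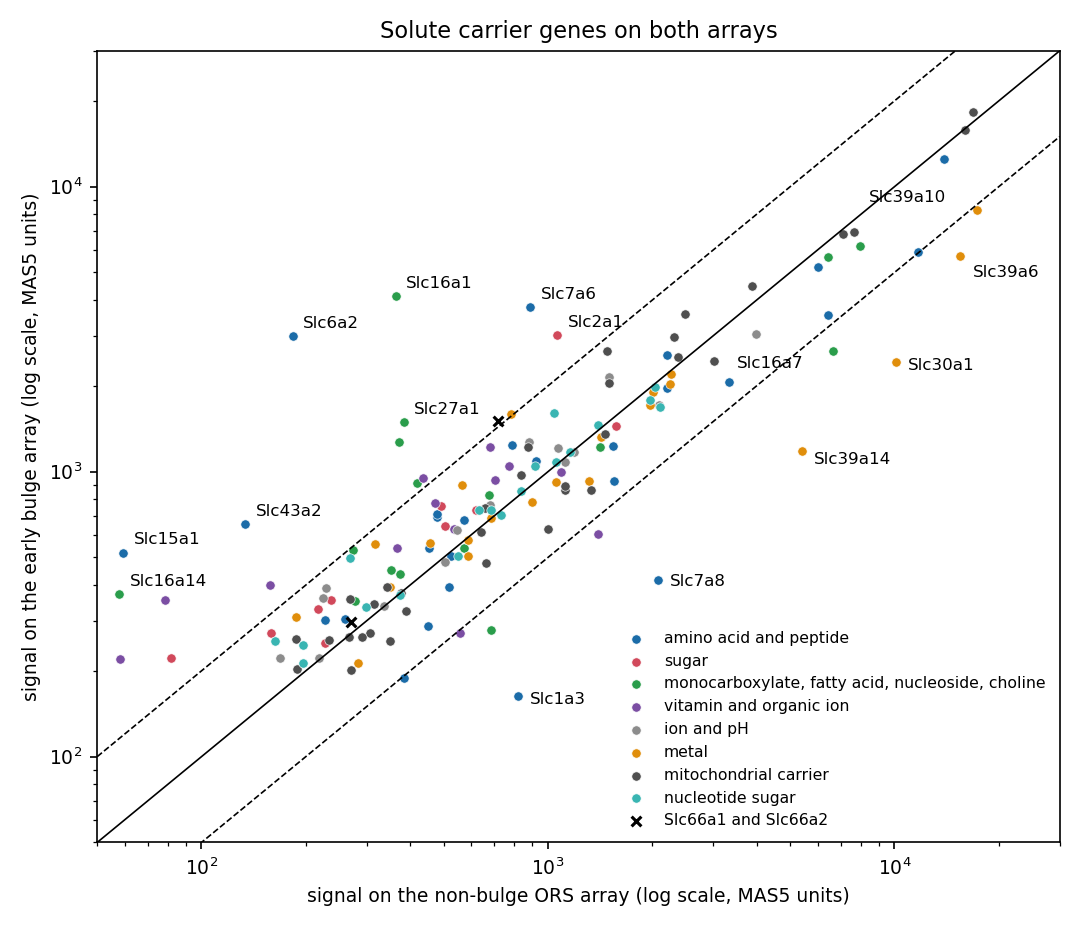
Signals of 158 solute carrier genes on the non-bulge ORS array (x axis) and the early bulge array (y axis), both on log scales in MAS5 signal units, with 1 point per gene coloured by role group. The solid line marks equal signals and the dashed lines a 2-fold difference, values below the floor of 57.8 are drawn at it, and 28 points lie on or outside the dashed lines.

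The signal rule itself shapes these counts. Of the 158 genes, 140 reached 200 on both arrays, 16 on the early bulge array alone and 2, Slc1a3 and Slc1a5, on the ORS array alone. Among the 140, 9 were 2-fold or more higher in each direction and the median log2 ratio was 0.03, beside -0.04 over the 8626 genes that reached 200 on both arrays. Just inside the threshold lay Slc25a47 (203 and 189 on the early bulge and ORS arrays), Slc35b2 (213 and 197) and Slc22a4 (219 and 58.0). Just outside lay Slc27a3 (131 and 193), Slc25a42 (180.1 and 192) and Slc41a3 (192 and 174). A further 102 Slc genes were below the floor on both arrays.

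The role groups differed in their spread. Of 34 mitochondrial carriers, 19 nucleotide sugar transporters and 15 ion and pH exchangers, none was 2-fold apart, and the SDs of their log2 ratios were 0.35, 0.30 and 0.34. The groups follow family numbers, so the ion group holds Slc9a3r1 and Slc4a1ap, and the amino acid group holds Slc7a6os and, through family 6, the amine transporter gene Slc6a2. Of 27 genes in the amino acid and peptide group 7 were 2-fold apart, with an SD of 1.41, which was 1.23 without Slc6a2 and Slc7a6os. Of 16 carriers of monocarboxylates, fatty acids, nucleosides and choline 7 were, with an SD of 1.33. The other groups were 22 metal transporters (5 apart), 13 transporters of vitamins and organic ions (6 apart) and 10 sugar transporters (2 apart). Among all genes under the signal rule, 7.8% were 2-fold or more higher in early bulge and 5.52% in ORS. The lysosomal genes Slc66a1 (297 and 270) and Slc66a2 (1512 and 718, 2.11-fold higher in early bulge, with other probe sets at 1.03 and 0.22) were in no group. Some genes 2-fold apart reached the signal minimum only on the array where they were higher. In the amino acid group these were Slc6a2, Slc43a2, Slc15a1, Slc1a3 and Slc1a5, while Slc7a6 and Slc7a8 reached it on both. Slc52a3, Slc22a4 and Slc22a15 were such genes in the vitamin group, Slc16a14 in the monocarboxylate group and Slc2a5 in the sugar group. The spread and counts of these groups thus rest partly on genes admitted by 1 array. Slc25a47, Slc25a25, Slc35d2, Slc35b2, Slc35f6 and Slc8b1, in groups with none 2-fold apart, were also admitted by 1 array. These are counts from 1 pair of arrays, and no test of a difference between groups was made.

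**Figure D2:**
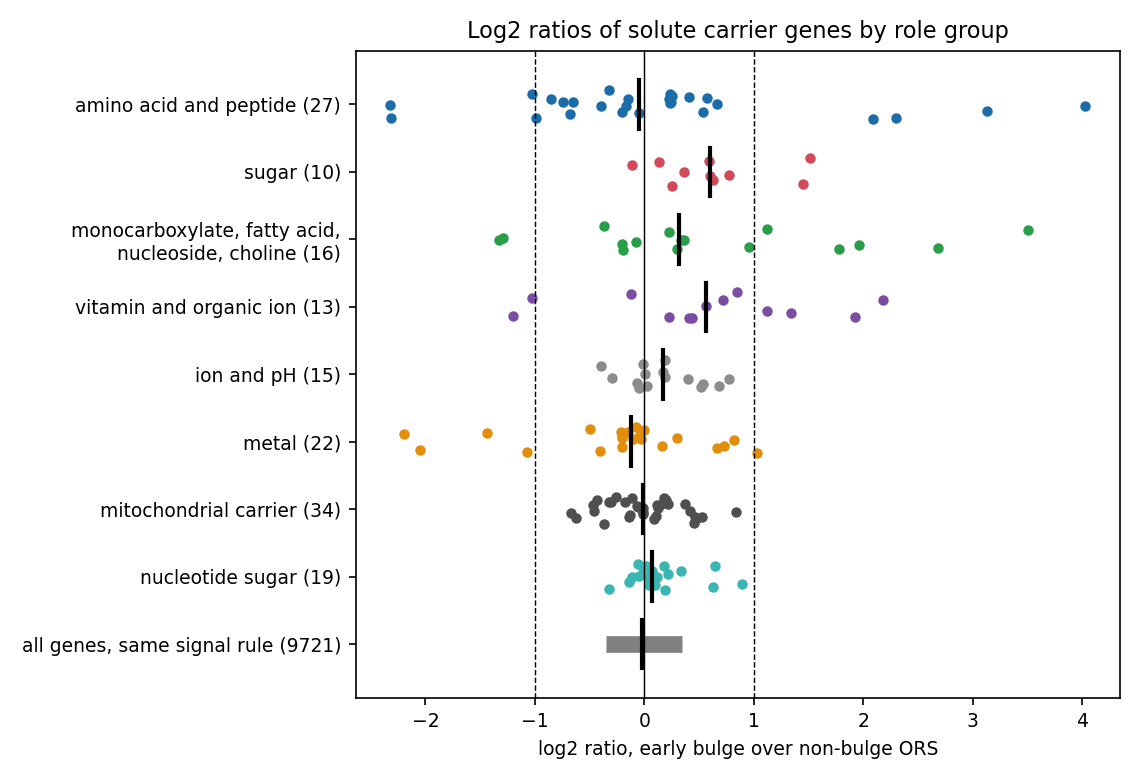
Log2 ratio of early bulge over non-bulge ORS (x axis) for each solute carrier gene by role group, with the number of genes in brackets, points spread vertically for legibility, black bars for medians and dashed lines at 2-fold. The bottom row gives the median and the 25th to 75th percentile of 9721 genes under the same signal rule, and the mitochondrial, nucleotide sugar and ion groups have no point beyond the dashed lines.

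Of the zinc transporters, 3 of 10 Slc39 and 1 of 7 Slc30 genes were at least 2-fold lower on the early bulge array. None was 2-fold higher there. Under the same signal rule, 5.52% of all genes were 2-fold or more higher in ORS and 7.8% in early bulge. With a signal minimum of 100, the metal group as a whole held 5 genes 2-fold higher in ORS and 2 in early bulge, in place of 4 and 1. Slc30a1, the zinc exporter of the plasma membrane, had signals of 2429 in early bulge and 10081 in ORS, 4.15-fold higher in ORS. A second probe set gave 707 and 1967, a log2 ratio of -1.48. Both probe sets were thus higher in ORS. Slc39a14, an importer of zinc that also carries iron and manganese, had signals of 1181 and 5404 (4.57-fold higher in ORS). Another probe set gave a log2 ratio of -0.68, and those with the early bulge signal below the floor were at least 1.47-fold and at least 2.47-fold higher in ORS. Slc39a6, an importer that pairs with Slc39a10, had signals of 5725 and 15497 (2.71-fold higher in ORS), and its other measured probe sets gave -2.03 and -2.09. Slc39a10 itself had signals of 8257 and 17318 (2.10-fold higher in ORS), and its second probe set, with 463 and 4318, gave a stronger log2 ratio of -3.22.

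The other zinc transporters were less than 2-fold apart. Over all 10 Slc39 genes the median log2 ratio was -0.11 and over 7 Slc30 genes -0.10. Slc39a9, a zinc transporter of the Golgi, had equal signals on the arrays (686 and 686), and Slc30a6, which loads zinc into Golgi vesicles, had a log2 ratio of -0.03. The 16 metal transporters not given by name under the naming rule had log2 ratios from -0.50 to 1.03, 6 of them higher in early bulge.

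The brightest probe sets of zinc-binding genes had the same direction as Slc30a1. Metallothioneins, encoded by Mt1 and Mt2, bind zinc in the cytosol, and the zinc-sensing factor encoded by Mtf1 is known to act on Mt1, Mt2 and Slc30a1 through metal response elements in their promoters. Mt1 had signals of 3718 and 10470, 2.82-fold higher in ORS, although a second probe set had 402 and 399. Mt2 had signals of 8476 and 13947 (log2 ratio -0.72), and Mtf1 217 and 202 (0.10). The other probe sets of Mtf1 gave 0.04 and, with signals of 348 and 122, 1.51, the latter towards early bulge. The dermal fibroblast markers were also higher in ORS, and their part in these zinc genes was not tested.

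The promoters of Slc30a1, Mt2 and Mt1 are shown because these genes share a known regulator and the same direction here. Each sequence is the 250 bases before the gene start in RefSeq (GRCm38.p6), read 5′ to 3′ along the gene, with capitals for each match to the core of the metal response element, spelled TGCACNC or TGCGCNC and searched on both strands.
Slc30a1, chr1:191906531-191906780, plus strand: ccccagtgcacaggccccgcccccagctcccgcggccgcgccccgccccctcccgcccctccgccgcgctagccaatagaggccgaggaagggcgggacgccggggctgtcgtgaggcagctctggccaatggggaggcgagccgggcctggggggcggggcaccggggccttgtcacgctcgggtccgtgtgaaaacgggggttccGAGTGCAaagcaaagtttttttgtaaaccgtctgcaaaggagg
Mt2, chr8:94172368-94172617, plus strand: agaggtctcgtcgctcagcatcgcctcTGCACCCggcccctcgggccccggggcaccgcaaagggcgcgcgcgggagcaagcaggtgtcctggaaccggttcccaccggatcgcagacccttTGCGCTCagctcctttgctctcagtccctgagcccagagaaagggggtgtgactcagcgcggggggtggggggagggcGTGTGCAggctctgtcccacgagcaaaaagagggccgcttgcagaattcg
Mt1, chr8:94178839-94179088, plus strand: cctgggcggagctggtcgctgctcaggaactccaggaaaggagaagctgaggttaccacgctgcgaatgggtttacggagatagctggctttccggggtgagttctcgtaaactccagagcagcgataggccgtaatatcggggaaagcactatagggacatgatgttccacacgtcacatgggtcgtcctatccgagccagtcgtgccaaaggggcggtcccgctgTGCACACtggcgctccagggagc
The Slc30a1 window held 1 match, which began 43 bases before the gene start. The Mt2 window held 3 matches, at 223, 128 and 50 bases before the start, and the Mt1 window 1 match at 23 bases. Matches outside these 250 bases were not counted, so the numbers are not totals for a promoter. Of 32851 promoter windows of the same length, 21.4% held at least 1 match and 1.26% held 3 or more. Among 18 metal transporter genes with a promoter in the table, 9 held a match in at least 1 of their windows (50%), as did 23.8% of 27025 genes. Slc39a14 and Slc39a6 had no promoter in the table and were not searched. The 9 had log2 ratios on both sides, from -2.05 to 0.82, and only Slc30a1 among them was 2-fold apart. They included Slc30a4 with 2 matches and a log2 ratio of -0.10. Neither window of Slc39a10 held a match. A match is a run of letters and was not shown to be a bound site.

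Iron genes included members on both sides. Slc40a1, which encodes ferroportin, the iron exporter, had signals of 1592 and 782 and was 2.04-fold higher in early bulge, with a second probe set at a log2 ratio of 0.87. Heph, which encodes hephaestin, the ferroxidase that works with ferroportin, had signals of 4421 and 772, 5.72-fold higher in early bulge. The transferrin receptor gene Tfrc, through which cells take up iron, had 2894 and 6116 and was 2.11-fold higher in ORS, with other probe sets at -1.67 and, with early bulge below the floor, at least 1.43-fold higher in ORS. Slc11a2, an iron importer of endosomes, had signals of 213 and 283, and Fth1, an iron storage gene, 7883 and 9285, with a second probe set at 0.32. Aco1, which encodes the iron regulatory protein 1, had 7588 and 4167 (log2 ratio 0.86), and its second probe set gave 1.33. Thus the exporter gene Slc40a1 and Heph were higher in early bulge and the receptor gene Tfrc in ORS. Slc40a1 fell short of 2-fold with median centring, a pseudocount or the mean over probe sets, with a lowest log2 ratio of 0.81. Of 12 measured genes of metal handling in all, 1 was 2-fold or more higher in early bulge and 2 in ORS, with a median log2 ratio of -0.27. Over 13252 measured genes of the array these shares were 7.3% and 4.78%.

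**Figure D3:**
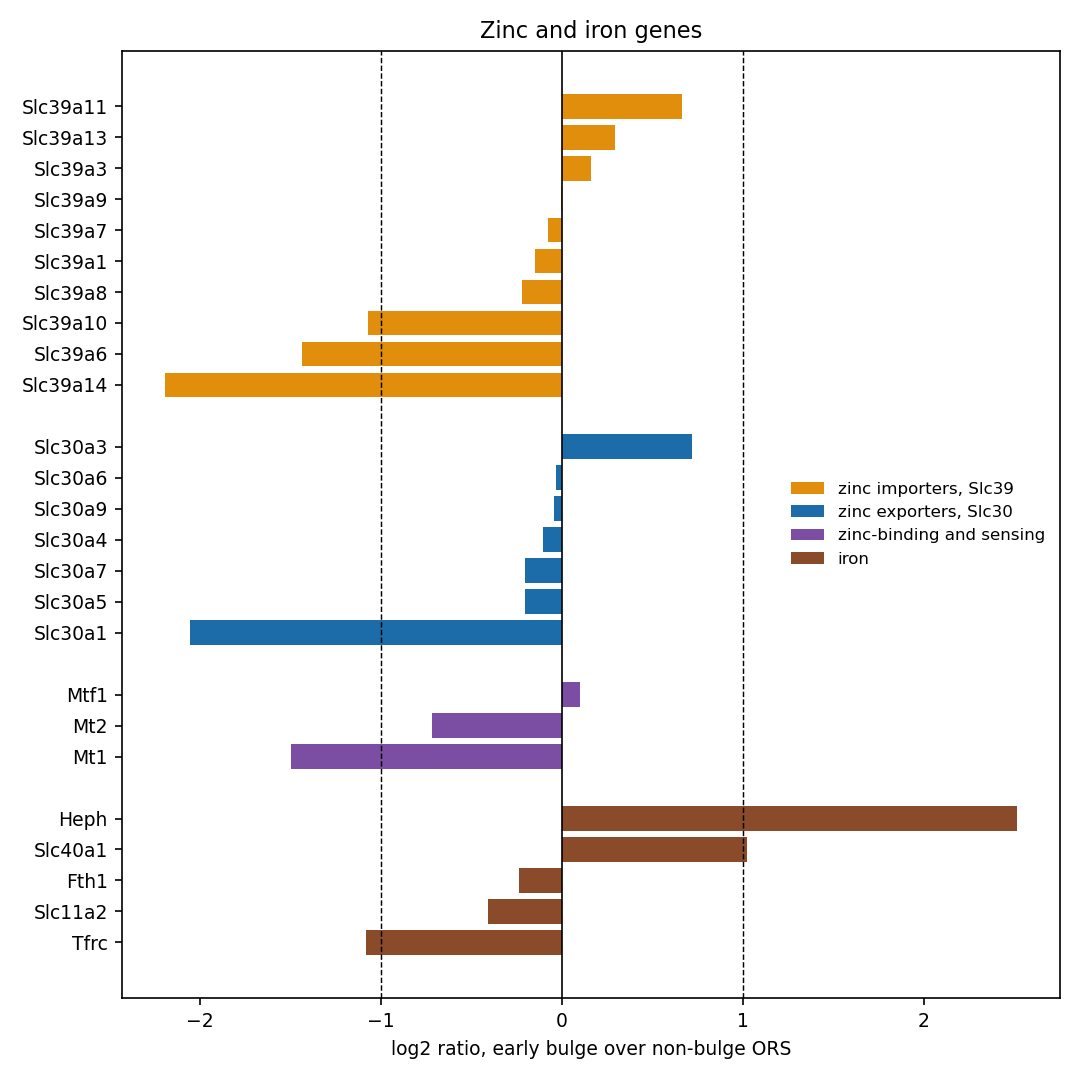
Log2 ratio of early bulge over non-bulge ORS (x axis) for zinc importers (Slc39), zinc exporters (Slc30), the metallothioneins and their regulator, and iron genes, with 1 bar per gene and dashed lines at 2-fold. Slc39a14, Slc30a1, Slc39a6, Slc39a10, Mt1 and Tfrc lie beyond 2-fold towards ORS, and Heph and Slc40a1 beyond it towards early bulge.

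The amino acid and peptide group held the highest ratio of the set and the lowest. Slc6a2, which encodes the noradrenaline transporter, had signals of 2984 in early bulge and 184 in ORS, 16.3-fold higher in early bulge. Its other probe sets were dimmer. One with 175 and 121 gave a log2 ratio of 0.53, and those with the ORS signal below the floor were at least 2.95-fold and at least 1.15-fold higher. Slc15a1, a peptide transporter best known from the intestine, had signals of 520.1 and 59.5 (8.73-fold), the latter just above the floor. Its log2 ratio of 3.13 was 1.60 under a floor set at the 60th percentile (171.8) and 2.38 with a pseudocount of 50. Slc43a2, a carrier of large neutral amino acids, had 655 and 133 (4.90-fold), and its second probe set, with the ORS signal below the floor, was at least 2.71-fold higher. Slc7a6, a family 7 light chain that exchanges cationic for neutral amino acids, had signals of 3780.1 and 889 (4.25-fold). A second probe set of Slc7a6 gave the same log2 ratio of 2.09. Its neighbour Slc7a6os had signals of 507 and 526, and a second probe set had 639 and 156, a log2 ratio of 2.03. The probe sets of Slc7a6os thus disagreed, and signal from its neighbour Slc7a6 cannot be told apart in the files used here.

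Towards the ORS array, 3 amino acid transporters were 2-fold apart. Slc1a3, a glutamate and aspartate transporter, had signals of 164 and 818 (4.99-fold higher in ORS), and a log2 ratio of -2.45 on another probe set measured on both arrays. The early bulge signal lay below the floor on its 4 other probe sets, which were at least 1.10-fold to at least 4.74-fold higher in ORS. Slc7a8, a light chain for neutral amino acids, had 418 and 2072 (4.96-fold higher in ORS) on its only probe set. The light chains Slc7a6 and Slc7a8 thus stood on opposite sides. Slc1a5, the glutamine carrier, had 189 and 384 (2.03-fold higher in ORS), but a second probe set had a log2 ratio of 0.34. Slc7a1, the main importer of arginine and lysine, had 5884 and 11714, 1.99-fold higher in ORS, and its second probe set gave -1.30. Median centring and quantile normalization moved it beyond 2-fold. The dermal fibroblast markers moved the same way as these genes, and their part was not tested.

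The heavy chain and several carriers of leucine and glutamine had ratios towards ORS at under 2-fold. Slc3a2 had signals of 3540.5 and 6413 (log2 ratio -0.86, and -1.07 after median centring), and its light chain partner Slc7a5, the importer of leucine, had 927 and 1549 (-0.74). Slc38a1, a sodium-coupled glutamine importer, had 287 and 451 (-0.65), and its second probe set, with 5.7 and 256, was at least 4.43-fold higher in ORS. The mean over both probe sets was -1.40. Slc38a2, a stress-induced relative of it, had 12529 and 13862 (-0.15), but its other probe sets gave 0.24 and 0.37. Slc38a10 had 5214 and 6008 (-0.20), and its other probe sets lay on both sides, from -0.42 to 0.87 where both arrays were measured. The glutamine carriers of family 38 as a whole had a median log2 ratio of 0.22 over 7 genes, none of them 2-fold apart. The 16 amino acid transporters not named by the rule had log2 ratios between -0.86 and 0.66.

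Genes of the response to amino acid shortage, of which several carriers are known targets, were not on the same side together. Of 19 measured, 6 were 2-fold or more higher in early bulge and 1 in ORS, with a median log2 ratio of 0.22, beside 7.3% and 4.78% of all measured genes. Atf4, the transcription factor of that response, had signals of 8300.4 and 7068, and its target Asns, asparagine synthetase, 1306 and 1733. The 4 with the largest ratios were Vldlr (3.77-fold), Ddit4 (2.62-fold), Nupr1 (2.58-fold) and Trib3 (2.41-fold), all higher in early bulge. Aldh18a1, an enzyme of proline synthesis, was 2.12-fold higher in ORS.

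Monocarboxylate carriers of family 16 were split between the arrays. Slc16a1, which encodes the lactate and pyruvate carrier MCT1, had signals of 4124 in early bulge and 364 in ORS, 11.3-fold higher in early bulge. Emb, which encodes the partner protein embigin, had 1953 and 180.1 (10.8-fold), and its second probe set gave a log2 ratio of 4.35. Bsg, which encodes basigin, the other partner, had 811 and 974 (log2 ratio -0.27), and its relative Nptn 6576 and 6214 (0.08). Slc16a1 and Emb were thus high on the same array, and Bsg and Nptn had like signals on both. Slc16a7 of the same family was higher in ORS (2644 and 6640), and which partner each carrier uses here was not tested. Slc16a14, a carrier with no settled substrate, had 371 and 18.5, and with the ORS signal below the floor it was at least 6.42-fold higher in early bulge. Its second probe set, also below the floor in ORS, had 105 and 39.8, at least 1.82-fold higher. Slc16a13 had 910.1 and 419.8 (2.17-fold).

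The ORS side held Slc16a7 and Slc16a6. Slc16a7, which encodes MCT2, a carrier with high affinity for pyruvate, had signals of 2644 and 6640 (2.51-fold higher in ORS). Slc16a6 had 279 and 684 (2.45-fold higher in ORS). Slc16a1 and Slc16a7, which carry the same substrates, thus stood on opposite sides, each with a single probe set above the floor. Of 7 genes of the family in the set, 3 were at least 2-fold higher in early bulge and 2 in ORS. The shares over all genes under the signal rule were 7.8% and 5.52%.

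**Figure D4:**
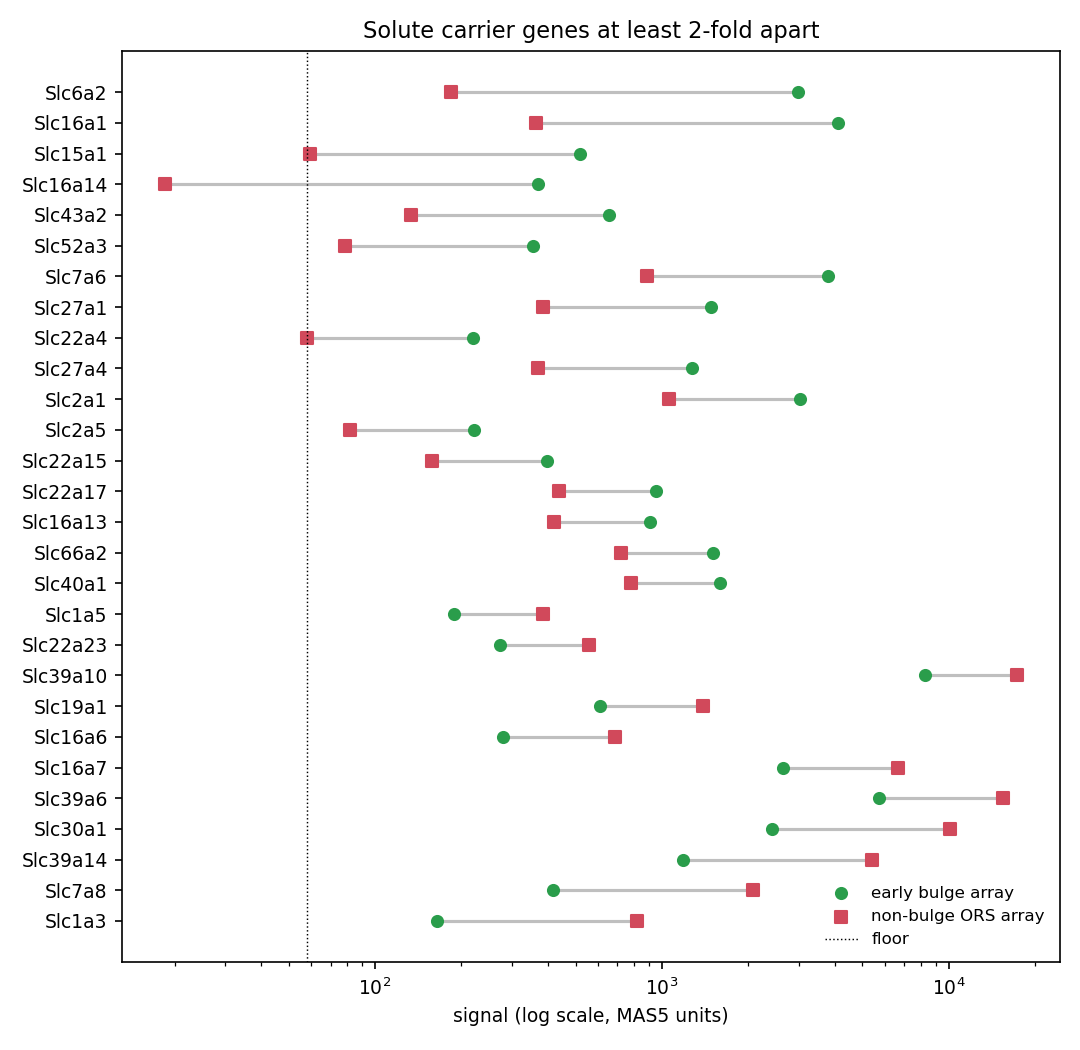
Signals on the early bulge array (circles) and the non-bulge ORS array (squares) on a log scale in MAS5 units for each of 28 solute carrier genes at least 2-fold apart, ordered by ratio, with the floor of 57.8 as a dotted line. The ORS signal of Slc16a14 lies below the floor, and the pair is widest for Slc6a2 (2984 and 184) among genes with both signals above it.

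Both fatty acid transport proteins in the set were higher in early bulge. Slc27a1 had signals of 1489 and 384 (3.88-fold), with a second probe set at a log2 ratio of 1.27. Slc27a4, the main fatty acid transport protein of epidermis, needed for its barrier, had 1269 and 371 (3.42-fold). The sebaceous gland genes, which belong to lipid synthesis, were high on the same array, and their part in the ratios of Slc27a1 and Slc27a4 was not tested. The choline transporters Slc44a1 (6176 and 7973) and Slc44a2 (5647 and 6448) had log2 ratios of -0.37 and -0.19, with other probe sets of Slc44a2 at 0.13 and 0.46. Slc10a3 had a log2 ratio of -0.08. The 3 nucleoside transporters of family 29 had log2 ratios from 0.22 to 0.36.

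Of 10 sugar transporters, 9 had more signal in early bulge at any size, with a median log2 ratio of 0.60, and 48% of all genes under the signal rule did. Of the 9, Slc2a5 and Slc45a1 reached the signal minimum on the early bulge array alone, which fixed their direction. Slc2a1, which encodes the glucose transporter GLUT1, had signals of 3020.0 and 1062 (2.84-fold). Its other probe sets gave log2 ratios of 1.36 and 1.65, so all 3 probe sets were at least 2-fold higher. Slc2a5, the fructose transporter, had 222 and 81.6 (2.72-fold), which fell short of 2-fold when the floor was set at the 60th percentile. Slc45a1 had 271 and 159 (log2 ratio 0.77), Slc50a1, a sugar carrier of the Golgi, 736 and 619 (0.25), and Slc2a12 249.9 and 227 (0.14). Slc5a3, which imports myo-inositol, had 1446 and 1567 (-0.12), but another probe set gave 0.41, and one with ORS below the floor had at least 1.82-fold more signal in early bulge than in ORS. The median of this group followed the scaling: median centring lowers each log2 ratio by about 0.22.

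Among 13 transporters of vitamins and organic ions, 4 were 2-fold or more higher in early bulge and 2 in ORS, beside 7.8% and 5.52% of all genes under the signal rule. The 4 became 1 with a signal minimum of 400 and 2 without _s, _x or _a probe sets, and the 2 became 1 with a pseudocount or the mean over probe sets. Slc52a3, a riboflavin importer, had signals of 356 and 78.5 (4.54-fold), and its log2 ratio of 2.18 was 1.05 with the floor at the 60th percentile. Slc22a4, the ergothioneine transporter, had 219 and 58.0 (3.78-fold), with the ORS signal just above the floor. Slc22a15 had 399 and 157 (2.53-fold), with a second probe set, below the floor in ORS, at least 2.54-fold higher. Slc22a17, a receptor for lipocalin-bound iron, had 951 and 437 (2.18-fold). On the other side, Slc19a1, the reduced folate carrier, had 607 and 1396 (2.30-fold higher in ORS), and its second probe set gave -0.98. Slc22a23 had 273 and 557 (2.04-fold higher in ORS). Family 22 thus held members on both sides. Slc23a2, the ascorbate importer, had 1224 and 681 (log2 ratio 0.85). The heme transporter Slc48a1 (999.8 and 1087) and Slc49a4 (628 and 537) had log2 ratios of -0.12 and 0.23.

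Ion and pH exchangers were within 2-fold on both arrays, with log2 ratios from -0.39 to 0.77. The bicarbonate and chloride exchangers Slc4a3 (390.4 and 229) and Slc4a2 (1274 and 881) had log2 ratios of 0.77 and 0.53, and the anion exchanger Slc26a6 0.68. Slc12a2, the sodium, potassium and chloride cotransporter, had 3038 and 3990.2 (-0.39), and its other probe sets gave -0.32 and -0.65. The phosphate importers stood on opposite sides of 0, with -0.29 for Slc20a1 (1712 and 2098) and 0.52 for Slc20a2 (2153 and 1503). Slc24a3 and Slc9a3r1 had ratios near 1 (log2 ratios of 0.01 and -0.01).

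The mitochondrial carriers were the largest group, and 30 of 34 had log2 ratios within 0.5 either way. The phosphate carrier Slc25a3 had signals of 15813 and 15974, and the adenine nucleotide carriers Slc25a5 (18354 and 16801) and Slc25a4 (6926 and 7646) had log2 ratios of 0.13 and -0.14. Slc25a39, which carries glutathione into mitochondria, had 6832 and 7119 (-0.06). The 8 measured probe sets of Slc25a5 gave log2 ratios from -0.45 to 0.13, and near-identical copies of this gene make their assignment uncertain. Slc25a1, the citrate carrier that supplies fatty acid synthesis, had the highest ratio, with 2650.2 and 1481 (1.79-fold). At the other end, Slc25a12, the aspartate and glutamate carrier, had 631 and 1002 (log2 ratio -0.67), but its other probe sets gave 0.03 and 0.28. Slc25a16 had 866 and 1335 (-0.63). Slc25a37, which brings iron into mitochondria, and Slc25a27 had log2 ratios of -0.01 each. The other 24 lay between -0.47 and 0.53.

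Nucleotide sugar transporters of the Golgi and endoplasmic reticulum, which supply glycosylation, had a median log2 ratio of 0.07, and 16 of 19 lay within 0.5 either way. Slc35e4 had signals of 497 and 268 (log2 ratio 0.89), but another probe set gave -0.23. Slc35d2 (254 and 162) and Slc35b3 (1606 and 1040.1) had log2 ratios of 0.64 and 0.63. Slc35a4 had 1680.4 and 2102 (-0.32). The transporters Slc35a3, Slc35b1 and Slc35d1 had log2 ratios of -0.05, -0.14 and -0.02, and Slc33a1, which carries acetyl-CoA, 0.02. The 10 others lay between -0.12 and 0.34.

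Probe sets of the same gene gave the only check inside the data, and it is technical. Among 28 genes 2-fold apart, 16 had another measured probe set. In 15 of the 16 all of these had the same direction, the exception being Slc1a5, in 12 of 16 at least 1 was also 2-fold apart and in 8 of 16 all were, with lower bounds taken at the bound. The remaining 12 genes had a single measured probe set. Within a gene, the SD of the log2 ratio over probe sets was 0.52 over 74 solute carrier genes and 0.36 over 5312 genes of the array.

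**Figure D5:**
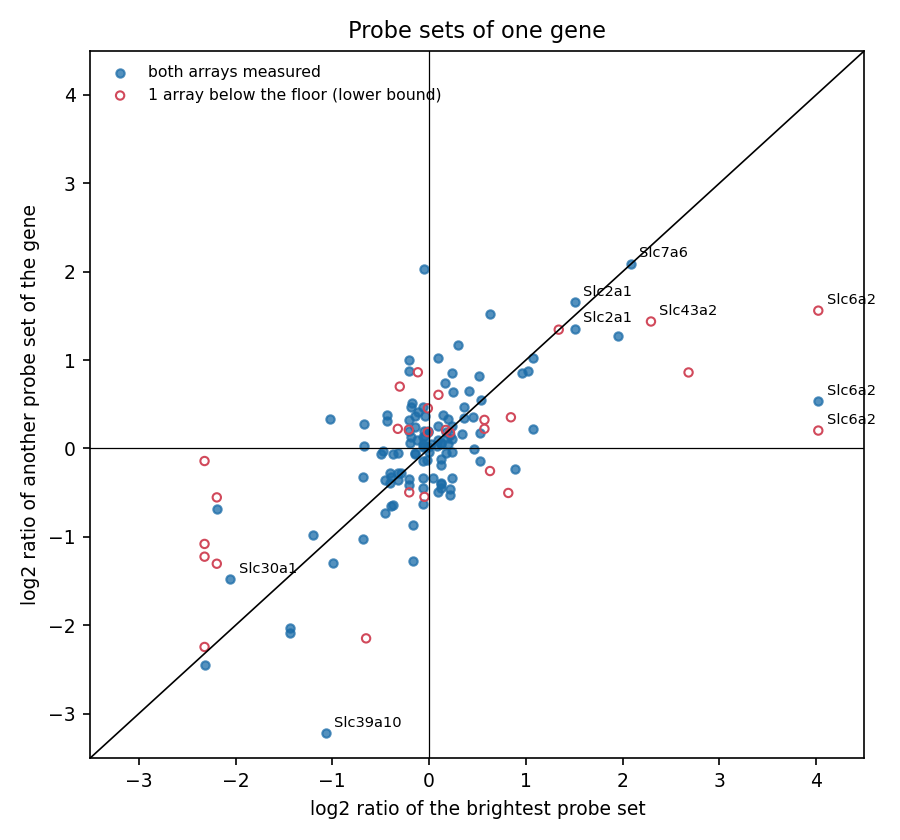
Log2 ratio of the probe set used for each solute carrier gene (x axis) and of every other measured probe set of that gene (y axis), with 1 point per other probe set, open where 1 array was below the floor so that a value is a lower bound, and the line of equality. Slc7a6 lies on the line with 2.09 on both axes, the fully measured other probe set of Slc6a2 lies below it at 0.53, and that of Slc39a10 gives -3.22.

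Other transporter families that share substrates with these genes were also split. Of 20 measured genes of the organic anion (Slco) and ATP-driven (Abc) families, 6 were 2-fold or more higher in early bulge and 3 in ORS. Of 13252 measured genes, 7.3% and 4.78% were, and the median log2 ratio of the 20 was 0.32. Some of the 6, among them Abca12 and Slco2b1, lay below the floor in ORS and counted as measured through early bulge alone. Abca1, the cholesterol exporter, had signals of 4889 and 1320.1 (3.70-fold), with other probe sets at a log2 ratio of 1.24 and at least 1.42-fold higher. Abca12, the lipid transporter of the epidermal barrier, was at least 3.52-fold and the organic anion transporter Slco2b1 at least 2.96-fold higher in early bulge. Slco4a1, a carrier of thyroid hormone and other organic anions, had 1964 and 6773 (3.45-fold higher in ORS), and its second probe set gave -1.44. Of 14 measured pump and partner genes, 3 were 2-fold or more higher in early bulge and none in ORS: Emb, Fxyd3, a regulator of the sodium pump (2.70-fold), and Atp7b, a copper pump (2.49-fold, with a second probe set at least 1.02-fold higher). Atp2b4, a calcium pump, had a log2 ratio of 0.91.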

How the data were processed

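The authors deposited 1 linear signal intensity per probe set and array. The submitters' processing notes name MAS5 and Affymetrix Expression Console, without versions. MAS5 subtracts mismatch signals, and its low values are noisy. The 2% trimmed mean was 500.0 on both arrays. Detection calls and the array files were not used here, and precision is limited by having 1 array a group.

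Gene symbols came from the platform annotation, and all 158 members had the same symbol under their Entrez ID in a RefSeq table (GRCm38.p6). Of the non-control probe sets, 34945 had 1 symbol, and 932 with several and 9160 with none in the annotation used were left out, as were 64 control probe sets. Log2 ratios were taken after setting signals under 57.8 to it (Python 3.11.15, pandas 2.3.3). The procedure was tested on simulated data. The members, lists, role groups (by family number) and the metal response element were chosen with earlier results of these data known.

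Named genes were the 12 largest ratios each way, the 10 highest mean signals, in each role group the 3 largest ratios, the 3 highest signals and the 2 ratios nearest 1, those beside the threshold, families with members 2-fold apart both ways, and the 4 largest ratios of each related list. Slc40a1, Slc4a1ap, Slc66a1, Slc66a2, Slc11a2, Slc3a2, Slc7a5, Slc38a1, Slc30a4, Aldh18a1, Atf4, Asns, Bsg, Nptn, Mt2, Mtf1 and Fth1 were named after their values were seen. So were Slc8b1, Slc25a25 and Slc35f6.

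Alternatives were median centring, quantile normalization, loess (span 0.4, statsmodels 0.14.6), a floor at the 20th or the 60th percentile, none at all, a pseudocount of 50, the mean over probe sets, no probe sets with an _s, _x or _a suffix, and signal minimums of 100 and 400.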

Additional observations from a re-analysis of the deposited data

How the results depend on the processing

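Over 11 alternatives the number of solute carrier genes 2-fold or more higher in early bulge ran from 12 to 19 (main 17) and on the ORS array from 9 to 13 (main 11). The extremes of the first count came with signal minimums of 400 (118 genes) and 100 (195 genes). The median log2 ratio ran from -0.10 after median centring to 0.14 with the mean over probe sets (main 0.11), and it was 0.01 with the minimum of 400. All 28 genes kept their direction under the 9 alternatives that give a value per gene, and 19 stayed 2-fold apart in each that could be computed. Those that did not were Slc19a1 (-0.73), Slc1a5 (-0.34) and Slc66a2 (0.22) at their weakest, Slc22a23 (-0.91), Slc40a1 (0.81), Slc16a13 (0.90) and Slc22a17 (0.90), and, with the floor at the 60th percentile, Slc2a5 (0.37) and Slc22a4 (0.35). With the mean over probe sets, which counts those below the floor on both arrays as 0, the log2 ratio was 1.58 for Slc6a2, 1.75 for Slc16a1, 1.77 for Slc16a14, 1.24 for Slc43a2, -1.58 for Slc1a3, -1.18 for Slc39a14 and -2.14 for Slc39a10. With the floor at the 60th percentile the bound for Slc16a14 was 1.11. Without _s, _x or _a probe sets, 143 genes were left. No paired analysis was possible because each group has 1 array. Leaving out an array was not possible for the same reason, and signals near the floor limit what can be ordered.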
